A study of Mus musculus with 4 samples.

Results

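Proteasome subunit genes were examined in the retina of mice that carry Q344X, a rhodopsin mutation found in dominantly inherited retinitis pigmentosa, in which photoreceptors are lost. Members were the genes whose mouse symbol begins with Psm, followed by a letter from a to g and a number, with a mean of at least 10 normalized counts over the 4 libraries. The symbol pattern matched 48 genes. The immunoproteasome genes Psmb8 and Psmb9 were left out by name, and 2 genes, Psma8 and Psmb11, were below the minimum mean, which left 44 members of 16833 genes tested and 52636 in the table. The members comprised 7 core alpha, 8 core beta, 6 ATPase and 14 non-ATPase genes, 4 activators, 4 assembly chaperones and Psmf1, which encodes an inhibitor. Retinas of 3-week-old mice gave 2 WT and 2 Q344X libraries. Of 3 replicates planned in each group, 2 were kept after checks of RNA quality and outliers, while the extraction protocol names 3 Q344X and 2 WT. Both groups share the tissue, the age and poly-A selection of the RNA. For strain, sex, litter and number of mutant alleles, the labels used here hold no entry.

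The proteasome degrades proteins that carry ubiquitin chains. Its core particle is a barrel in which outer rings of alpha subunits form the gate and inner rings of beta subunits carry the protease sites. A regulatory particle caps the barrel: its base holds a ring of ATPases that unfold substrates, and its lid and base hold non-ATPase subunits that bind ubiquitin and remove it. In the retina, rods make very large amounts of membrane protein every day, and mutant rhodopsin is among the proteins that the ubiquitin-proteasome system is known to handle.

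The libraries held 18452679 to 19706573 reads in genes, computed from the deposited values. Rod markers were abundant in every library: the summed level of Sag, Rcvrn, Pde6b, Crx and Nrl was 242519 and 261992 normalized counts in WT and 202751 and 218031 in Q344X. The rod markers did not move alike. In the order named, their log2 fold changes, Q344X minus WT, were -0.04, -1.15, -0.75, -0.08 and -0.43. Of these only Rcvrn passed the test described below. Markers of other retinal cells also differed between the genotypes. The cone markers Arr3 and Pde6h summed to 7943 and 6272 in WT and to 1423 and 1435 in Q344X. The pigment epithelium markers Rpe65, Mlana and Tyrp1 did not move one way: Rpe65 was at 471 and 427 in WT and 923 and 1134 in Q344X, Tyrp1 at 318 and 338 in WT and 219 and 221 in Q344X, and Mlana at 14.6 and 28.1 in WT and 18.8 and 32.6 in Q344X. The lens markers Cryaa, Crygs and Cryba1 summed to 167880 and 200178 in WT, to 158459 in Q344X replicate 1 and to 4704 in Q344X replicate 2. Over 16 crystallin genes, most of them lens proteins, this was 1.51%, 1.79% and 1.76% of the library in the first 3 and 0.0562% in Q344X replicate 2. Q344X replicate 2 therefore stood apart in lens RNA. The number of member calls and most medians of role classes are also given below without it. Fold changes of single genes are given with it. The part of these cell types in the values of proteasome genes was not tested. As these are whole retinas, a change in the share of a cell type and a change in RNA per cell cannot be told apart.

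Promoter windows of 4 genes are shown because the proteasome genes are known to be controlled together, by NRF1 at antioxidant response elements and by NF-Y at CCAAT boxes. Psmb3 and Psmd6 are 2 of the 3 members that passed the test described below, and Psmb5 and Psmb6 encode catalytic subunits. Each window holds the 250 bases before the annotated start, 5′ to 3′ on the strand of the gene, from RefSeq on GRCm38.p6. Capitals mark matches to TGACNNNGC, the core of the antioxidant response element, or to CCAAT, on either strand.
Psmb3, chr11:97703184-97703433, plus strand: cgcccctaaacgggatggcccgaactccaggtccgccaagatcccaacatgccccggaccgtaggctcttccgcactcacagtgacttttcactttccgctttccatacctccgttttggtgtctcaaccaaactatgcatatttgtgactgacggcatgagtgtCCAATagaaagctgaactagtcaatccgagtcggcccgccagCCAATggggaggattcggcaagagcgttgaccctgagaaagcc
Psmd6, chr14:14120946-14121195, minus strand: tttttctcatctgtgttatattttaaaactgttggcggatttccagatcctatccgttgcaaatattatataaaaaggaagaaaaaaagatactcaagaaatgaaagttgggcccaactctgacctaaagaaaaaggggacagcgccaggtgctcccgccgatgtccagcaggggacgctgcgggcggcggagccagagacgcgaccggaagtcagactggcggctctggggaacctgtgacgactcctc
Psmb5, chr14:54617996-54618245, minus strand: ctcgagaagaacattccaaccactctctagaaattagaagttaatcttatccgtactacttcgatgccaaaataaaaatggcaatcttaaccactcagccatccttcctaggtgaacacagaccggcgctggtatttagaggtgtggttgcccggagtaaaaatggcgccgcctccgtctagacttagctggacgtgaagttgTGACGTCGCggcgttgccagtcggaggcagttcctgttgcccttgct
Psmb6, chr11:70525107-70525356, plus strand: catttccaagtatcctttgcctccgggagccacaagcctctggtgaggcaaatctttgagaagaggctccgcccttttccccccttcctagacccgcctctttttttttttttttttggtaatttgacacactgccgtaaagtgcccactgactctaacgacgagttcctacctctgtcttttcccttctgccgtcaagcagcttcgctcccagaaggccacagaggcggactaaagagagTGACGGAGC
The Psmb3 window held CCAAT at 2 places and Psmd6 held neither motif. Psmb5 and Psmb6 each held 1 match to TGACNNNGC. The window of the third gene that passed, Psmd13, lies wholly within exons of that gene in GENCODE and is not shown.

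Windows were found for 37 of the 44 members, with Psmb1, Psmb2, Psmb7, Psmc3, Psmd3, Psmd7 and Psmg2 unmatched. TGACNNNGC was present in 5 of the 37, or 13.5%, against 10.1% of 27025 promoters of the same length. CCAAT was present in 12 of the 37, or 32.4%, against 34.5% of all promoters. No member's window held both motifs. By role, CCAAT was in 5 of 7 alpha windows (Psma1, Psma2, Psma3, Psma6 and Psma7) and in 1 of 5 beta windows. The motif TGACNNNGC was in the windows of Psmb5, Psmb6, Psmc6, Psmd12 and Psmd9. A match describes letters in the window and not a bound site.

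Levels of most proteasome mRNAs were higher in Q344X than in WT by less than 2-fold, and few of the differences passed the test. Psmb3, Psmd13 and Psmd6 rose, 0 members fell and 41 did not pass (limma, adjusted p under 0.05 over all 16833 genes). The 3 that rose are 6.82% of the members, near the background of 5.46% of all tested genes called higher. At an unadjusted p under 0.05, 17 of the 44 members were higher, a larger share than the 16% of all tested genes. In the other direction, 9.1% of all tested genes were called lower, and 18.7% were lower at an unadjusted p under 0.05. No member was lower by either measure. The direction was shared more widely than the calls. The log2 fold change was above 0 in 41 of 44 members, against 51.2% of all tested genes. That count was 36 without WT replicate 1 and 41 without WT replicate 2. It was 43 without Q344X replicate 1 and 34 without Q344X replicate 2. In 30 members both Q344X libraries lay above both WT libraries, which is 68.2% of the members against 31.4% of all tested genes. In 0 members they lay below, against 31.7%. The median log2 fold change was 0.34 over the members and 0.02 over all genes tested, and members ranged from -0.20 (Psmd10) to 1.21 (Psmb3). Together the members took 0.306% and 0.337% of the normalized counts in the WT libraries and 0.406% and 0.509% in the Q344X libraries.

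The number of calls depended on single libraries more than the median did. Without WT replicate 1 there were 0 calls, without WT replicate 2 there was 1 (Psmb3), without Q344X replicate 1 there were 19 higher members, and without Q344X replicate 2 there were 3. The share of all tested genes called higher was 2.3%, 2.92%, 14% and 7.39% in these fits. In the same order the member median was 0.28, 0.44, 0.50 and 0.27. Testing every gene above 0 also ended the 3 calls, with 0.496% of all genes then called higher, and a correction for gene length and GC content gave 10 higher members, with 11.9% of all genes then called higher.

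**Figure D1:**
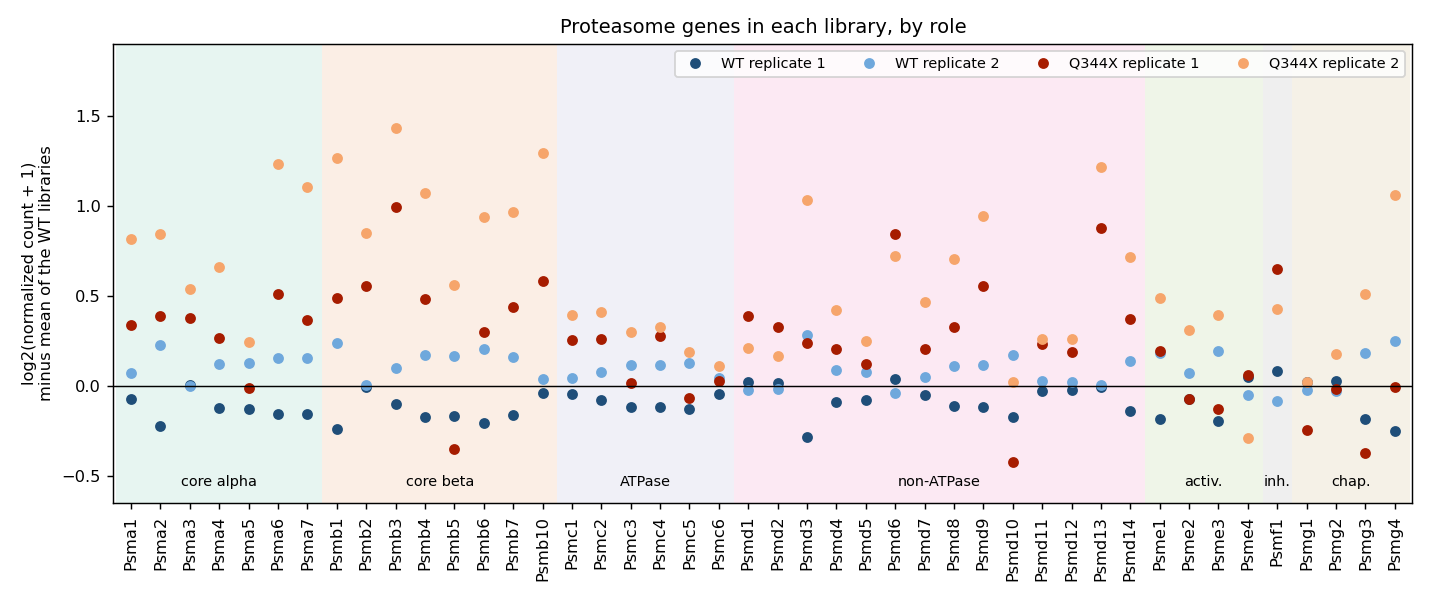
Each point is 1 library of 1 proteasome gene, as log2(normalized count + 1) minus the mean of the WT libraries, with genes ordered by role (activ., activators; inh., inhibitor; chap., assembly chaperones). Q344X replicate 2 is the highest library for each of the 15 core alpha and beta genes, and the ATPase genes lie closer to the WT mean.

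Among the core alpha genes, which form the gated outer rings, 0 of 7 passed and all 7 had a log2 fold change above 0, with a median of 0.58. Psma6 had the largest difference of the class. Its WT libraries held 1336 and 1661 normalized counts and its Q344X libraries 2125 and 3499 (log2 fold change 0.87 ± 0.28, SE, limma adjusted p = 0.0883). The groups did not overlap, and the Q344X libraries differed from each other more than the WT libraries did. Psma7 was at 1487 and 1850 in WT and 2142 and 3569 in Q344X (0.74 ± 0.28, adjusted p = 0.130), with the same order of libraries. Over all tested genes, 31.4% had both Q344X libraries above both WT libraries. Psma5 was the only alpha gene whose groups overlapped, with 705 and 844 in WT and 765 and 915 in Q344X. Its log2 fold change was 0.12, with a 95% confidence interval of -0.37 to 0.61. The other 4, Psma1, Psma2, Psma3 and Psma4, had log2 fold changes of 0.58, 0.62, 0.46 and 0.47.

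The core beta genes had the highest median of the role classes with more than 1 gene, 0.74, and 1 of 8 rose. Psmb3 encodes a beta subunit without a protease site (ENSMUSG00000069744, chromosome 11, 97703399 to 97713500, GRCm38). It was at 580 and 667 normalized counts in WT and at 1241 and 1682 in Q344X. Both Q344X libraries were thus well above both WT libraries. The log2 fold change was 1.21 ± 0.22 (SE, limma adjusted p = 0.0245), and the adjusted p was 0.0963 without WT replicate 1. Psmb1, Psmb2 and Psmb4, also subunits without a protease site, had 0.88, 0.70 and 0.78, and their groups did not overlap. Psmb2 came nearest to the threshold of these (adjusted p = 0.0587), with 818 and 822 in WT and 1204 and 1480 in Q344X.

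The 3 constitutive protease subunits differed in how their libraries fell. Psmb7, which carries the trypsin-like site, was at 1821 and 2276 normalized counts in WT and 2756 and 3985 in Q344X (log2 fold change 0.70 ± 0.24, SE, limma adjusted p = 0.103). Psmb6, with the caspase-like site, was at 1452 and 1937 in WT and 2068 and 3217 in Q344X (0.62 ± 0.28, adjusted p = 0.171). In both genes the Q344X libraries lay above the WT libraries, and neither passed. Psmb5, with the chymotrypsin-like site, was at 877 and 1106 in WT and 772 and 1454 in Q344X. Here Q344X replicate 1 was the lowest library and replicate 2 the highest, so the groups overlapped, with a log2 fold change of 0.11 and a 95% confidence interval of -0.70 to 0.91.

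Psmb5 shares sequence with an annotated processed pseudogene, Gm3375 (chromosome 7, 3181093 to 3181888, GRCm38), which matched 88.5% of its principal transcript at 98.9% identity. Gm3375 was at 39.5 and 42.1 normalized counts in WT and at 311 and 339 in Q344X (log2 fold change 2.96 ± 0.22, SE, limma adjusted p = 0.00462). Its groups were far apart, unlike those of Psmb5. How reads that match both were counted is not stated in the labels, so the values of Psmb5 are uncertain. The sum of the 2 genes was 916 and 1148 in WT and 1083 and 1793 in Q344X, and its groups overlapped too.

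Psmb10, the immunoproteasome counterpart of Psmb7 that remains among the members, was at 131 and 138 normalized counts in WT and 202 and 331 in Q344X. Its groups did not overlap and its log2 fold change was 0.94 ± 0.29 (SE, limma adjusted p = 0.0792). Psmb8 was at 40.6 and 51.1 in WT and 32.7 and 55.7 in Q344X, and Psmb9 at 15.6 and 17.0 in WT and 11.9 and 15.4 in Q344X. These counterparts of Psmb5 and Psmb6 had log2 fold changes of -0.09 and -0.25 and did not pass. Immunoproteasome subunits are known from immune cells. The microglia markers Cx3cr1 and P2ry12 summed to 155 and 165 in WT and 182 and 219 in Q344X, and the leukocyte marker Ptprc was at 24.96 and 19.05 in WT and 14.9 and 13.4 in Q344X. Their part in the value of Psmb10 was not tested. Per kilobase of transcript, Psmb10 was at 6.37% and 5.38% of Psmb7 in WT and 6.48% and 7.35% in Q344X. The ratio was higher in both Q344X libraries, but 6.48% in replicate 1 was close to 6.37% in WT replicate 1. That gap was smaller than the difference between the WT libraries. The corresponding share was 2.55% in both WT libraries and 2.34% and 2.11% in Q344X for Psmb8 over Psmb5. For Psmb9 over Psmb6 it was 0.634% and 0.519% in WT and 0.339% and 0.282% in Q344X. All 3 immunosubunit mRNAs were therefore scarce beside their constitutive counterparts in every library.

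**Figure D2:**
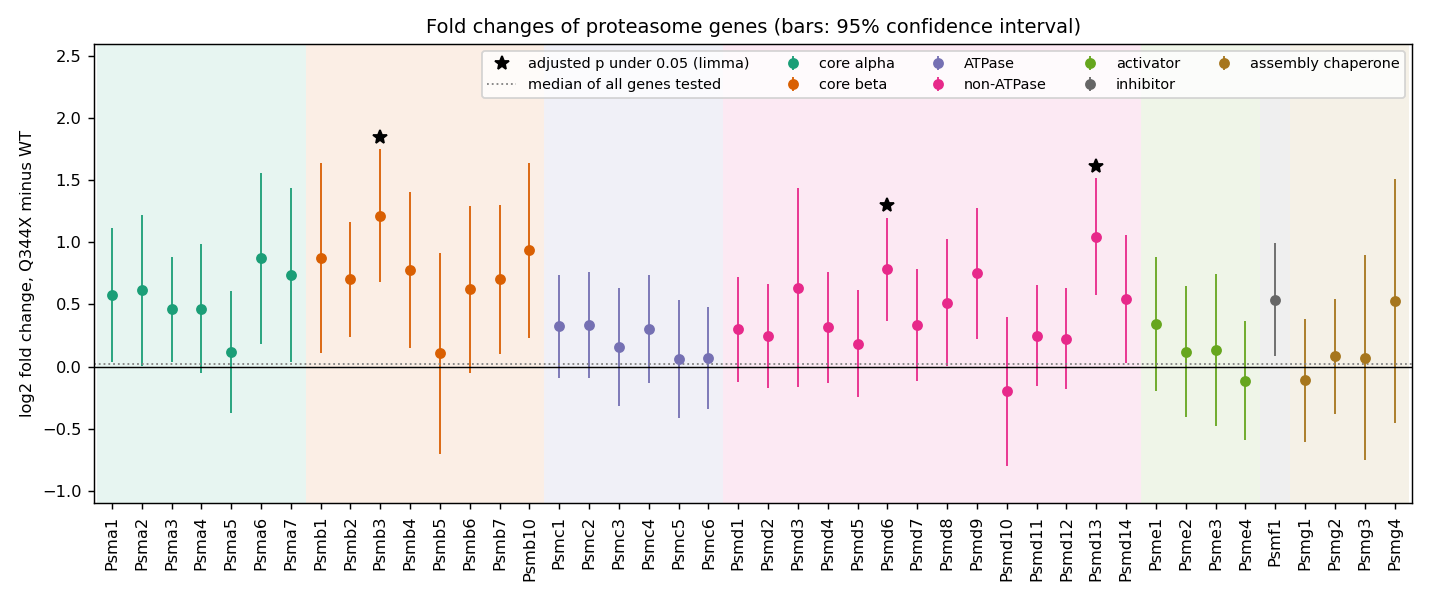
Points give the log2 fold change of each proteasome gene, Q344X minus WT, with 95% confidence intervals from limma (n = 2 libraries per group), coloured by role. Stars mark Psmb3, Psmd6 and Psmd13, the 3 genes past the threshold. The intervals of all ATPase (Psmc), activator (Psme) and core particle chaperone (Psmg) genes include 0.

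The ATPase genes, whose products form the unfolding ring of the base, differed less between the genotypes than the core genes in these libraries. Of 6, 0 passed and the median log2 fold change was 0.23. In 3 (Psmc1, Psmc2 and Psmc4) both Q344X libraries lay above both WT libraries, against 31.4% of all tested genes. Log2 fold changes ran from 0.06 (Psmc5) to 0.34 (Psmc2). Psmc2 was at 1948 and 2167 normalized counts in WT and 2465 and 2727 in Q344X. Psmc5 was at 2330 and 2782 in WT and 2431 and 2905 in Q344X, so that its groups overlapped. The 95% confidence intervals were -0.42 to 0.54 for Psmc5 and -0.34 to 0.48 for Psmc6. Between libraries of a genotype the ATPase genes differed by a median of 0.19 in WT and 0.14 in Q344X, so the WT libraries differed by nearly as much as the genotypes.

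Set against the ATPase genes, the core genes were relatively more abundant in Q344X. The mean log2 level of the 15 core genes minus that of the 6 ATPase genes was -1.04 and -0.96 in the WT libraries and -0.75 and -0.36 in Q344X replicates 1 and 2. The groups did not overlap, and the Q344X libraries differed from each other by more than the WT libraries did. The median log2 fold change was 0.70 over the core genes and 0.31 over the 20 ATPase and non-ATPase genes. The difference between the classes was not tested. Without Q344X replicate 2 the medians were 0.37 for core alpha, 0.49 for core beta, 0.14 for ATPase and 0.28 for non-ATPase genes.

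Of the 14 non-ATPase genes, 2 rose, and the median was 0.33. Psmd13, which encodes the lid subunit Rpn9 (ENSMUSG00000025487, chromosome 7, 140881968 to 140898643, GRCm38), was at 1198 and 1210 normalized counts in WT and 2212 and 2799 in Q344X. The WT libraries were nearly equal and both Q344X libraries were far above them (log2 fold change 1.05 ± 0.19, SE, limma adjusted p = 0.0253). Psmd6, which encodes the lid subunit Rpn7 (ENSMUSG00000021737, chromosome 14, 14112174 to 14120984), was at 1401 and 1326 in WT and 2447 and 2249 in Q344X (0.78 ± 0.17, adjusted p = 0.0359). Unlike most members, Psmd6 was higher in Q344X replicate 1 than in replicate 2. Leaving out WT replicate 1 or WT replicate 2 ended the call of Psmd13 (adjusted p = 0.116 and 0.0904) and that of Psmd6 (0.222 and 0.237). Psmd6 also did not pass without a mean-variance trend in the fit (0.0661).

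The remaining lid and base genes differed by less. Psmd3, Psmd14 and Psmd8 had log2 fold changes of 0.64, 0.54 and 0.52. Psmd14 encodes the deubiquitinase of the lid and was at 1139 and 1379 normalized counts in WT and 1620 and 2062 in Q344X, without overlap. The large scaffold subunits Psmd1 and Psmd2 had 0.30 and 0.25, and the ubiquitin receptor gene Psmd4 had 0.31. The lid genes Psmd7, Psmd11 and Psmd12 had 0.34, 0.25 and 0.22. None of these passed. In all but Psmd3 both Q344X libraries lay above both WT libraries, against 31.4% of all tested genes. Psmd11 shares 52.7% of its principal transcript, at 97.9% identity, with the noncoding gene A730017L22Rik on chromosome 2. That gene fell from 244 and 249 in WT to 108 and 70.1 in Q344X, so the value of Psmd11 is uncertain where reads match both. The sum of the 2 genes was 1395 and 1446 in WT and 1489 and 1479 in Q344X, with a smaller gap between the groups than for Psmd11 alone, at 1150 and 1197 in WT and 1381 and 1409 in Q344X.

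Assembly factors had log2 fold changes on both sides of 0, and none passed. Of the Psmd names, 3 belong to chaperones that help to build the base. Of these, Psmd9 had 0.75 ± 0.21 (SE, limma adjusted p = 0.0684), Psmd5 had 0.18, and Psmd10, which encodes gankyrin, had -0.20. Psmd10 was at 309 and 391 normalized counts in WT and 259 and 353 in Q344X, with overlap. The chaperones of the core particle, Psmg1 to Psmg4, had -0.11, 0.08, 0.07 and 0.53, and the groups overlapped in all 4. Psmg4 was at 105 and 149 in WT and 125 and 262 in Q344X, where a single Q344X library was above the others. Their median of 0.08 became -0.13 without Q344X replicate 2.

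Activators cap the core particle in place of the regulatory particle. Psme1 and Psme2 encode the interferon-inducible activator, Psme3 its nuclear relative and Psme4 a large nuclear activator. Their log2 fold changes were 0.34, 0.12, 0.13 and -0.11, and 0 of 4 passed (smallest adjusted p = 0.313). Psme4 was at 1981 and 1844 normalized counts in WT and 1992 and 1564 in Q344X, with overlap. The median of 0.13 was -0.0068 without WT replicate 1 and -0.0077 without Q344X replicate 2. Psmf1, which encodes the inhibitor PI31, was at 863 and 770 in WT and 1281 and 1097 in Q344X. Its groups did not overlap (0.54 ± 0.19, SE, adjusted p = 0.101), and in both genotypes replicate 1 was the higher library, as it was for Psmd1, Psmd2, Psmd6 and Psme4.

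Per kilobase of the principal transcript, core and ATPase mRNAs were the most abundant classes. In WT the class medians were 1103 normalized counts per kilobase for core alpha, 1029 for core beta, 1356 for ATPase and 793 for non-ATPase genes. They were 473 for the activators, 299 for the assembly chaperones and 214 for Psmf1. The ATPase genes ran from 1061 (Psmc6) to 1942 (Psmc5), and the assembly chaperones from 229 (Psmg4) to 381 (Psmg2). The alpha genes ran from 515 (Psma3) to 1825 (Psma7), and the beta genes from 103 (Psmb10) to 2123 (Psmb6). The non-ATPase genes ran from 245 (Psmd10) to 1551 (Psmd4). In Q344X the medians were 1597 for core alpha, 1741 for core beta, 1582 for ATPase and 1136 for non-ATPase genes. The order of these medians differed between the Q344X libraries. In Q344X replicate 1 they were 1380 for core alpha, 1511 for core beta and 1488 for ATPase genes, and in replicate 2, the library low in lens RNA, 1813, 2091 and 1680. The order within a class depends on the length used: over all annotated exons the ATPase genes spanned 4.48-fold in place of 1.83-fold, and Psmc2 was then the lowest.

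**Figure D3:**
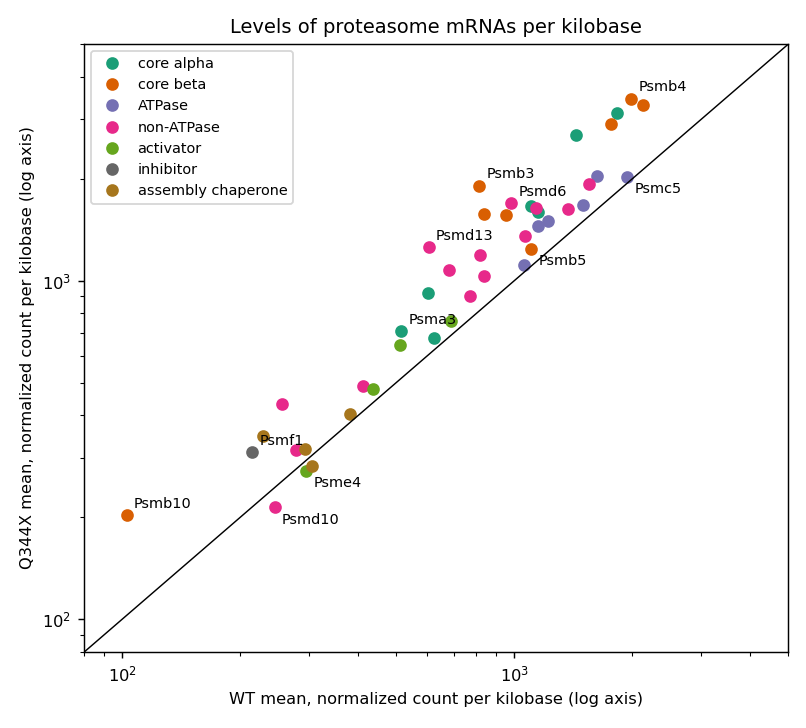
Each point is 1 proteasome gene, with its mean normalized count per kilobase of the principal transcript in WT on the x axis and in Q344X on the y axis (both log axes), coloured by role. The line marks equal levels: most genes lie above it, Psmb3 and Psmd13 farthest among the abundant genes, and Psmd10, Psme4 and Psmg1 lie below it.

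The members also differed between libraries of the same genotype, and in the same direction. WT replicate 2 was above WT replicate 1 in 36 of 44 members, against 52.2% of all tested genes. Q344X replicate 2 was above Q344X replicate 1 in 39 of 44, against 50.6% of all tested genes. Both held in 36 members, against 38.8% of all tested genes. The median difference, replicate 2 minus replicate 1, was 0.21 on the log2 scale in WT and 0.32 in Q344X, against 0.02 and 0.01 over all genes. The numbers are only names given in accession order and do not pair the libraries. Even so, a member that differed more between the WT libraries also differed more between the Q344X libraries (Pearson r = 0.79, Spearman rho = 0.78 over 44 members, a description across genes measured in the same 4 libraries). Over all 16833 genes r was 0.48 and rho 0.61.

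These differences bear on the size of the genotype effect. The core genes differed by a median of 0.31 between the WT and 0.53 between the Q344X libraries, and the assembly chaperones by 0.16 and 0.58. The gap between a WT and a Q344X library therefore depends on which are compared. The median over the 44 members was 0.17 for Q344X replicate 1 minus WT replicate 2, the closest libraries, and 0.63 for Q344X replicate 2 minus WT replicate 1. All 4 such medians were above 0. For the core genes they ran from 0.26 to 1.13, and for the ATPase genes from 0.07 to 0.43.

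**Figure D4:**
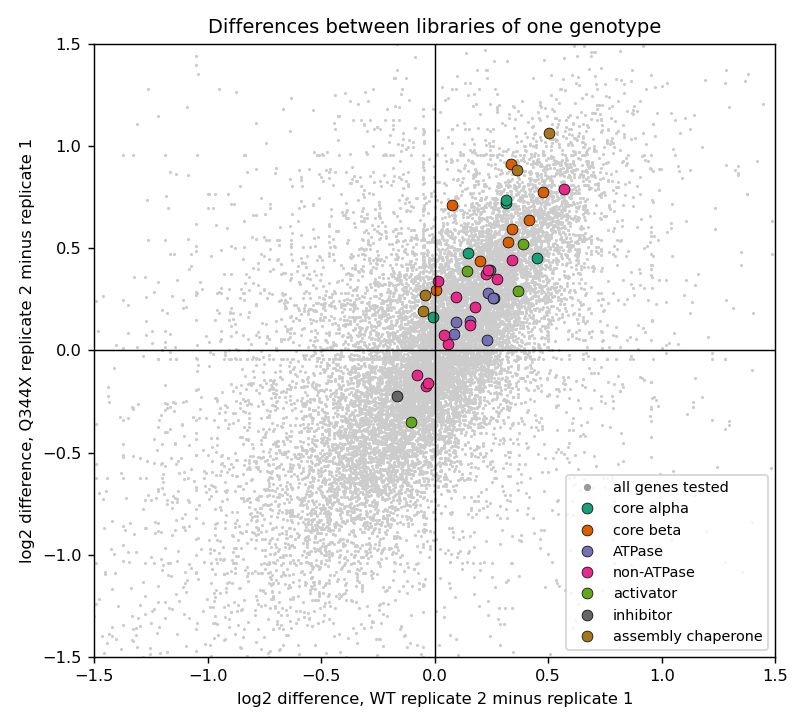
The x axis gives the log2 difference between the WT libraries and the y axis that between the Q344X libraries, each replicate 2 minus replicate 1, for proteasome genes (coloured by role) and all genes tested (grey). Most proteasome genes, 36 of 44, lie above 0 on both axes, and genes with a difference beyond 1.5 in either direction are outside the axes.

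Few genes of the wider ubiquitin-proteasome pathway passed the test. Of 10 tested accessory subunits and assembly factors, 0 passed in limma and 2 were higher at an unadjusted p under 0.05, with a median of 0.09. The ubiquitin receptor gene Adrm1 had 0.70 ± 0.23 (SE, adjusted p = 0.0884) and the small lid subunit gene Sem1 0.70 ± 0.24 (adjusted p = 0.104). The most abundant of this list were Ecpas, a scaffold (0.07), Zfand5, a proteasome-binding zinc finger gene (0.07), Ube3c, a ubiquitin ligase (0.07), and Usp14, a deubiquitinase (0.30). Of 6 shuttle factors that carry ubiquitinated proteins to the proteasome, 0 passed in limma and 5 were below 0, with a median of -0.36. At an unadjusted p under 0.05, 1 was higher and 2 were lower. Of all tested genes, 16% were higher and 18.7% lower at that limit, and 51.2% had a log2 fold change above 0. Rad23b had 0.54, and Ubqln1, Ubqln2 and Ddi2, had -0.32, -0.05 and -0.59.

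Of 11 tested regulators of proteasome gene expression, 1 fell and 0 rose, against 9.1% and 5.46% of all tested genes. Nfya, which encodes the DNA-binding subunit of NF-Y, was at 1032 and 1286 normalized counts in WT and 514 and 575 in Q344X, and thus fell from 1159 ± 180 to 544 ± 43.2 (SD, n = 2 libraries, log2 fold change -1.08 ± 0.20, SE, limma adjusted p = 0.0254). Its call was lost without WT replicate 1 (log2 fold change -1.24) and without WT replicate 2 (-0.92). With no filter on low values the call was lost too (limma adjusted p = 0.0674), with 1.24% of all genes then called lower. Nfe2l1, which encodes NRF1, had -0.22 ± 0.21, the NRF partner gene Mafg -0.15 and the NRF2 inhibitor gene Keap1 0.07, and Nfyb and Nfyc, the other NF-Y subunit genes, had 0.31 and -0.28. The polyubiquitin gene Ubb had a log2 fold change of 0.29 and the E1 gene Uba1 -0.08, and neither passed. The 4 genes of the VCP segregase, which extracts ubiquitinated proteins from membranes and complexes, had 0 calls in limma (1 higher at an unadjusted p under 0.05), with Vcp at 0.20, Ufd1 at 0.50, Nploc4 at 0.51 and Nsfl1c at -0.10.

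Other large complexes were set beside the proteasome. Of all tested genes, 5.46% were called higher. The COP9 signalosome, whose subunits are related to the lid, had a median of 0.18, and 1 of 10 genes, Cops5, rose (0.88 ± 0.20, SE, limma adjusted p = 0.0387). The translation initiation factor eIF3, also related to the lid, had a median of 0.59, and 5 of 13 genes (38.5%) rose, which were Eif3b, Eif3e, Eif3j1, Eif3l and Eif3m (0.70 to 0.81). The CCT chaperonin, which folds tubulin and actin, had a median of 0.36 and 0 of 8 calls, with 3 higher at an unadjusted p under 0.05. None of these 6 calls held without WT replicate 1 or without WT replicate 2. The 6 calls were also lost with no filter on low values (0.496% of all genes then called higher). They were lost without a mean-variance trend too (4.17%). Cytosolic ribosomal protein genes, added after their shift was known, had a median of 0.83 with 11 of 78 higher. The ribosomal genes differed between the replicates by a median of 0.38 in WT and 0.65 in Q344X. The medians of the core proteasome genes, 0.70 between genotypes and 0.31 and 0.53 between replicates, were each below those of the ribosomal genes, and these differences were not tested.

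**Figure D5:**
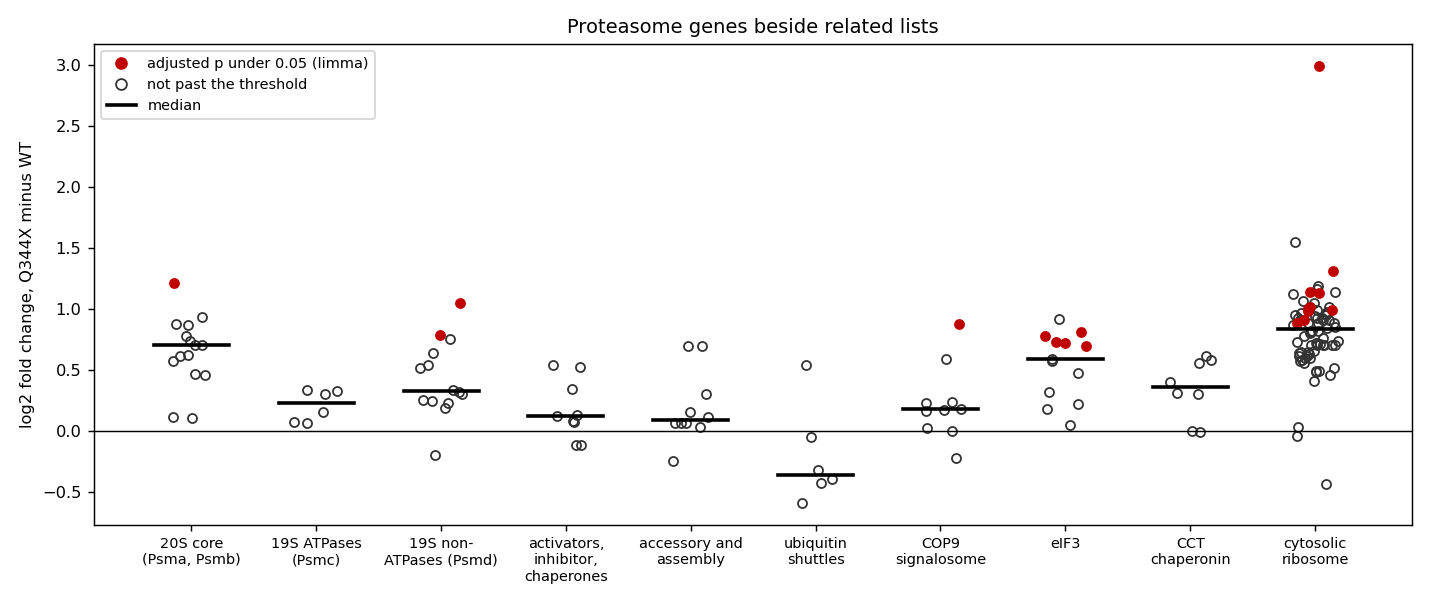
Points give the log2 fold change, Q344X minus WT, of each tested gene in 4 groups of proteasome members and 6 other lists, with the median as a bar (20S, the core particle; 19S, the regulatory particle). Filled points passed the threshold (limma adjusted p under 0.05): 3 are proteasome genes, 1 is in the COP9 signalosome, 5 are in eIF3 and 11 are ribosomal.

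The members with the lowest means inside the minimum of 10 were Psmg4, with 105 to 262 normalized counts, and Psmb10, and no member lay close to it. Outside it, Psma8, a testis relative of Psma7, was at 1.04 and 1.003 in WT and 3.96 and 2.88 in Q344X, and Psmb11, the thymus beta subunit, was at 1.04 and 0 in WT and 0.990 and 3.84 in Q344X. These are values of a few reads.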

How the data were processed

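RNA of 3-week-old retinas was sequenced in 4 libraries, 2 per genotype, grouped by the labels' phenotype. The authors' deposited table holds a signal per gene, counts divided by a size factor for each library. Per the submitters' processing notes the build was mm10 and the tools included DESeq2 1.16.1, featureCounts, STAR, Trim Galore 0.4.4 and FastQC; their roles, the annotation and the strand setting are not stated there. Depths are sums of values divided by the value of 1 read, inferred from the steps in each column; no count model was fitted to these inferred reads.

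Values were tested as log2(normalized count + 1), a scale that understates changes of low genes, with limma 3.58.1 in R 4.3.3 (with a mean-variance trend; degrees of freedom: residual 2, prior 3.9; two-sided, Benjamini-Hochberg over 16833 genes with a mean of at least 10, threshold 0.05). An exact permutation of 2 against 2 libraries cannot go below p = 0.333. The design text counts 2 animals per genotype, and p-values rest on the spread between these few. The test was also run on simulated data with a fixed spread and independent genes. Genes here shifted together between libraries, so that run does not show how the test behaves on these data. Symbols, positions and lengths are from GENCODE M21 (GRCm38, also called mm10); 233 genes had no symbol. Principal transcripts are APPRIS's, the longest where several tie. Copies are transcripts of other genes with at least 95% identity over at least 50% of a member's transcript; 7 members had 1 or more in the table. Paaf1 of the accessory list was not analysed here. Some genes of the ubiquitin and cell type marker lists are not reported here. Members, lists and tests were chosen with earlier results of these data known. The genes named in each role class are those past the threshold and those with the highest and lowest fold change and level per kilobase, plus the catalytic beta subunits. In other lists up to 4 are named, those past the threshold first and then the most abundant; further ones were named after their values were seen. Alternatives were other pseudocounts, filters, scalings and variance settings, a loess correction for length and GC content, and leaving out each library.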

Additional observations from a re-analysis of the deposited data

How the results depend on the processing

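The 3 higher proteasome genes and 0 lower ones were also found with pseudocounts of 0.5 and 5, a minimum mean of 50, 75th percentile scaling, quantile normalization and robust variance moderation, and 2 were higher without a mean-variance trend (4.17% of all genes tested). With no filter on low values there were 0 higher members (0.496% of all genes tested), and with the length and GC correction there were 10 (11.9%). Leaving out 1 library gave 0 to 19 higher members and 0 lower ones, and member medians of 0.27 to 0.50; the median was 0.50 without Q344X replicate 1. The cause of these differences was not tested. In fits without 1 library the residual variance comes from the intact pair, and the lone library is assumed to vary like it. Over the fits without 1 library the activators' median ran from -0.0077 (without Q344X replicate 2; -0.0068 without WT replicate 1) to 0.35 (without Q344X replicate 1), and that of the assembly chaperones from -0.13 (without Q344X replicate 2) to 0.35 (without Q344X replicate 1). No paired analysis was possible because the labels give no replicate numbers.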

Other observations

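Other near-identical copies of proteasome genes held few counts. Psme2b, a copy of the activator gene Psme2 at 99.4% identity, was at 19.8 and 18.05 normalized counts in WT and 23.8 and 23.0 in Q344X, against 399 and 440 and 398 and 521 for Psme2. The pseudogene copies of Psma4, Psma5, Psmb3 and Psmd2 summed to between 0.281% and 1.96% of the mean of their parent gene.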
